A study of Mus musculus with 10 samples.

Results

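The genes examined encode enzymes of sterol and fatty acid synthesis and the proteins that regulate them. They were chosen by name, with earlier results of these data known, as a list of 35 genes. Of these, 34 had a probe set of their own among the 18193 genes represented on the array. Acat2, the first enzyme of the list, had none in the annotation used and is not analysed here. Each gene is represented by the probe set, a set of short oligonucleotides read as 1 value, whose log2 signal, averaged over the 10 arrays, was highest.

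RNA came from C57Bl/6 mice and was hybridised to Affymetrix MOE430_2 arrays in 3 groups. Resting natural killer (NK) cells, lymphocytes that kill infected or transformed cells, were splenic NK1.1+CD3- cells, sorted and lysed at once (3 arrays). IL-15 NK cells were sorted in the same way, kept for 24 h with 100 ng/mL of the cytokine IL-15 and then lysed (3 arrays). Resting bulk splenocytes were lysed unsorted (4 arrays). The series describes the NK arrays of each condition as 3 biological replicates and the splenocyte arrays as 2 biological samples with 2 chips each. NK RNA was amplified in 2 cycles and splenocyte RNA in 1 cycle, so cell source and amplification cannot be told apart in comparisons with splenocytes. No NK cells cultured without IL-15 were analysed here, so IL-15 and 24 h of culture cannot be told apart either. The labels give no age or sex of the mice.

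Cells build cholesterol from acetyl-CoA through the mevalonate pathway, which makes isoprenoid units that are joined to squalene, closed to lanosterol and trimmed to cholesterol. Fatty acids are built from the same acetyl-CoA by acetyl-CoA carboxylase and fatty acid synthase, then lengthened by ELOVL enzymes and given double bonds by SCD and FADS enzymes. Both arms are known targets of the SREBP transcription factors, membrane proteins that the SCAP protein carries from the endoplasmic reticulum to the Golgi for activation and that INSIG proteins hold back when sterols are plentiful. Lymphocytes are known to raise lipid synthesis when they grow and divide.

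Overall brightness had been set equal between arrays before deposit. Signals under a floor of 180 units (179.85) were set to it before log2 was taken, and a fold against a group with an array at the floor is a lower bound, given as at least N-fold. Of 9 NK markers, 9 lay above the floor on every NK array. The 9 B-cell markers on the array summed to between 1883 and 24977 signal units on resting NK arrays, with 24977, 24621 and 1883 in replicates 1, 2 and 3. Their sum was 914 to 1547 on IL-15 NK arrays and 199414 to 247400 on splenocyte arrays. Cd79a, Ms4a1, Cr2 and Ebf1 lay at the floor on every IL-15 NK array, while Cd22 lay above it on every one. The 10 macrophage and monocyte markers summed to between 6651 and 15130 units in resting NK cells, 1274 and 2001 in IL-15 NK cells and 157401 and 168324 in splenocytes. Mpeg1, C1qa, C1qb, Cd14 and Ly86 of that list lay at the floor on every IL-15 NK array, while Csf1r and Adgre1 lay above it on every one. The 10 T-cell markers summed to 12616 to 19063, 6330 to 7997 and 72223 to 89066 units in the same order. Of these, Cd3e, Cd4, Cd8b1 and Cd6 lay at the floor on every IL-15 NK array. Cd3g, Cd8a and Cd28 lay above the floor on every IL-15 NK array. Neutrophil and erythroid markers reached at most 1.98% and 0.729% of their mean splenocyte sum on any NK array. The ratio of 3-prime to 5-prime signal of the Gapdh control, a sign of RNA or labelling quality, ranged from 5.88 to 9.54 in resting NK cells, ranged from 2.90 to 3.81 after IL-15 and was at most 1.39 in splenocytes. The part of these differences in the results was not tested.

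Sterol synthesis genes were higher after IL-15 along nearly the whole pathway, while among the fatty acid genes some rose, 1 fell and most did not pass. Of the 34 genes, all of which passed the filter on dim genes, 22 rose, 1 fell and 11 did not pass at a limma adjusted p under 0.05. Over all 11433 genes tested 26.3% were called, 14.2% as higher and 12.1% as lower. The 34 genes were chosen with earlier results known, so setting them beside these shares is not an independent test. The arrays of the 2 groups did not overlap for 24 genes that were higher and 1 that was lower, against 20.5% and 21.6% of all genes tested. The median log2 difference was 1.11 over the 34 genes and -0.09 over all genes tested. Of 17 genes of the sterol pathway 15 rose, and their median difference over all 17 was 1.82. Of 11 fatty acid genes 3 rose, 1 fell and 7 did not pass, with a median of 0.35. A setting chosen after seeing the data left out resting NK replicates 1 and 2, whose B-cell marker sums were the highest. There the log2 difference was 5.43 in place of 5.36 for Sqle and 3.47 in place of 4.00 for Idi1. It was -1.51 in place of -1.66 for Acss2, 0.50 in place of 0.89 for Scd2 and 0.38 in place of 1.11 for Tm7sf2. This setting leaves 1 resting array, so these values have no replicate check on the resting side.

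**Figure D1:**
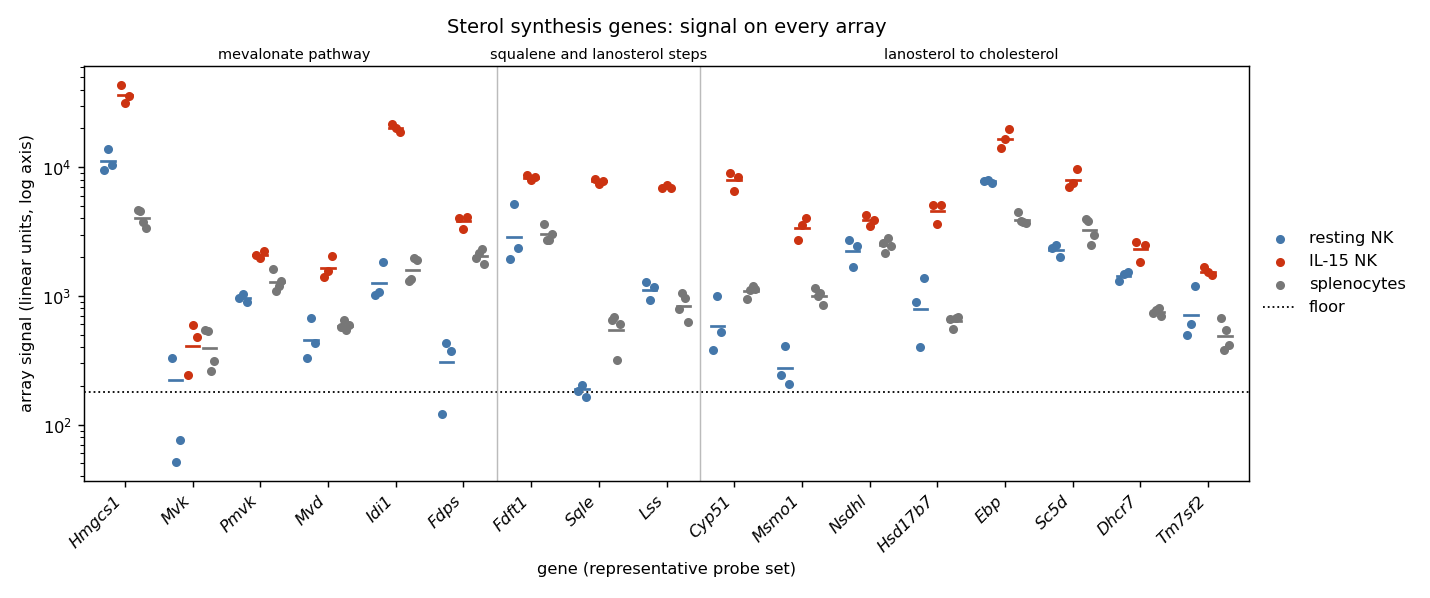
Signal of the representative probe set on every array (linear units on a log axis) for the 17 sterol pathway genes, in resting NK, IL-15 NK and splenocyte arrays; short bars are geometric means after flooring and the dotted line is the floor of 179.85 units. Except for Mvk, whose resting and IL-15 arrays overlap, every IL-15 NK point lies above every resting NK point; signals of different genes come from different probes and cannot be ranked against each other.

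The early, mevalonate part of the pathway was represented by 6 genes, of which 5 rose. Idi1 encodes the isomerase that balances the pathway's 2 isoprenoid building blocks. Its signals were 1015, 1081 and 1824 on resting NK and 21630.0, 20133 and 18818 on IL-15 NK arrays. Every IL-15 array was thus above every resting array, and the rise was 16-fold (log2 4.00 ± 0.24 SE, n = 3 per group, limma adjusted p = 1e-05). Fdps encodes farnesyl diphosphate synthase, whose product feeds both sterols and protein prenylation. It gave 121, 430 (429.8) and 371 units at rest and 4032, 3307 and 4102 after IL-15. The lowest resting array was under the floor, so the rise was at least 12.4-fold (log2 at least 3.63 ± 0.35 SE, n = 3 per group, limma adjusted p = 8e-05). Mvd, the decarboxylase that ends the mevalonate steps, read 330.1, 675 and 428 at rest and 1411, 1555 and 2026 after IL-15, without overlap. Its rise was 3.60-fold (log2 1.85 ± 0.33 SE, n = 3 per group, limma adjusted p = 0.0026).

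Hmgcs1, which makes HMG-CoA at the entry of the pathway, lay between 9526 and 13926 units at rest and between 31265 and 43901 after IL-15, a 3.27-fold rise. Pmvk, a kinase of the pathway, rose 2.17-fold. Mvk, the kinase before it, read 331, 51.5 and 76.0 at rest and 244, 592 and 480.4 after IL-15. Only 1 of its 3 resting arrays was above the floor, the groups overlapped, and the log2 difference of 0.90 did not pass (limma adjusted p = 0.12). Without IL-15 NK replicate 1 it was 1.27 and passed (limma adjusted p = 0.047).

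The middle steps join and close the carbon chain, and all 3 of their genes rose. Sqle encodes squalene epoxidase, a rate-limiting step of the sterol branch. It was at the edge of the floor at rest, with 183, 205 and 165 units, and read 8113, 7397 and 7781 after IL-15. This was the largest rise among the 34 genes, at least 41.0-fold (log2 at least 5.36 ± 0.24 SE, n = 3 per group, limma adjusted p = 5.1e-06), and the 3 IL-15 arrays lay close together (SD 0.07 on the log2 scale). Lss, lanosterol synthase, which folds the chain into the ring system, read 1277, 925 and 1167 at rest and 6872, 7273 and 6927 after IL-15. The groups did not overlap and the rise was 6.31-fold (log2 2.66 ± 0.21 SE, n = 3 per group, limma adjusted p = 3.2e-05). Fdft1, squalene synthase, read 1928, 5225 and 2357 at rest and 8689, 7885 and 8390 (8389.9) after IL-15. Resting replicate 2 stood above the other resting arrays but below every IL-15 array, and the rise was 2.89-fold (log2 1.53 ± 0.32 SE, n = 3 per group, limma adjusted p = 0.0065).

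Of 8 genes that turn lanosterol into cholesterol 7 rose. Cyp51, the lanosterol demethylase, read 377, 995 and 526 at rest and 9005, 6587 and 8350.0 after IL-15. No resting array came near an IL-15 array, and the rise was 13.6-fold (log2 3.76 ± 0.34 SE, n = 3 per group, limma adjusted p = 6e-05). Msmo1, a sterol methyl oxidase, gave 242, 409 and 207 units at rest against 2731, 3576 and 4023 after IL-15. It rose 12.4-fold, again without overlap (log2 3.64 ± 0.32 SE, n = 3 per group, limma adjusted p = 5.9e-05). Hsd17b7, a keto-reductase of the same demethylation complex, read 893, 404 and 1381 at rest (SD 0.90 on the log2 scale) and 5068, 3612 and 5084 after IL-15. It rose 5.72-fold (log2 2.52 ± 0.40 SE, n = 3 per group, limma adjusted p = 0.0014).

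The other late genes moved less. Sc5d, a desaturase, rose 3.54-fold, Tm7sf2, a sterol reductase, 2.17-fold, Ebp, a sterol isomerase, 2.15-fold, and Nsdhl, a dehydrogenase of the demethylation complex, 1.74-fold. Dhcr7, which catalyses the last reduction of 1 branch to cholesterol, read 1313, 1486 and 1530.4 at rest and 2632, 1843 and 2501 after IL-15. Its groups did not overlap, but the log2 difference of 0.67 (95% interval 0.14 to 1.2) did not pass (limma adjusted p = 0.062). Without IL-15 NK replicate 2 it was 0.83 and passed (limma adjusted p = 0.045). The call of Nsdhl was lost without IL-15 NK replicate 1, 2 or 3 or resting NK replicate 2, with limma adjusted p up to 0.11. That of Tm7sf2 was lost without any single array except resting NK replicate 3, also up to 0.11. With resting replicate 3 as the lone resting array its log2 difference was 0.38 in place of 1.11.

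Among the regulators, the sterol-sensing genes did not move as 1 block: 4 of 6 rose, counting the sterol carrier Stard4. Insig1, itself a known SREBP target, read 1140.0, 673 and 1111 at rest and 2899, 2853 and 3738 after IL-15. It rose 3.31-fold without overlap (log2 1.73 ± 0.28 SE, n = 3 per group, limma adjusted p = 0.0015). Its paralog Insig2 read 4509, 5592 and 4446 at rest and 5053, 3437 and 3695 after IL-15. These groups overlapped, and the log2 difference of -0.27 did not pass (95% interval -0.74 to 0.20, limma adjusted p = 0.39). The other 2 probe sets of Insig2 gave 0.14 and 0.20 and did not pass either, so no direction is given for it. The difference between the paralogs was not tested.

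Srebf2 encodes the SREBP best known for driving cholesterol genes. It read 867, 431 and 580 (579.6) at rest and 1598, 1553 and 1453 after IL-15. All IL-15 arrays were higher, by 2.55-fold (log2 1.35 ± 0.31 SE, n = 3 per group, limma adjusted p = 0.0092). Srebf1, whose products favour fatty acid genes, read 3188, 5449 and 4002 at rest and 4895, 7063 and 4722 after IL-15. The groups overlapped and the log2 difference of 0.41 did not pass (95% interval -0.14 to 0.96, limma adjusted p = 0.25). Scap, the escort protein, read 5636, 5728 and 4787 at rest and 7186, 9762 and 7675 after IL-15. Its rise was small, 1.52-fold (log2 0.60 ± 0.19 SE, n = 3 per group, limma adjusted p = 0.039), and it did not pass without any single array except resting NK replicate 2 (limma adjusted p up to 0.13). Stard4, a carrier of cholesterol between membranes, read 1715, 1483 and 1633 at rest and 9189, 6964 and 8670 (8669.9) after IL-15. This was a 5.11-fold rise without overlap (log2 2.35 ± 0.20 SE, n = 3 per group, limma adjusted p = 4.3e-05).

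**Figure D2:**
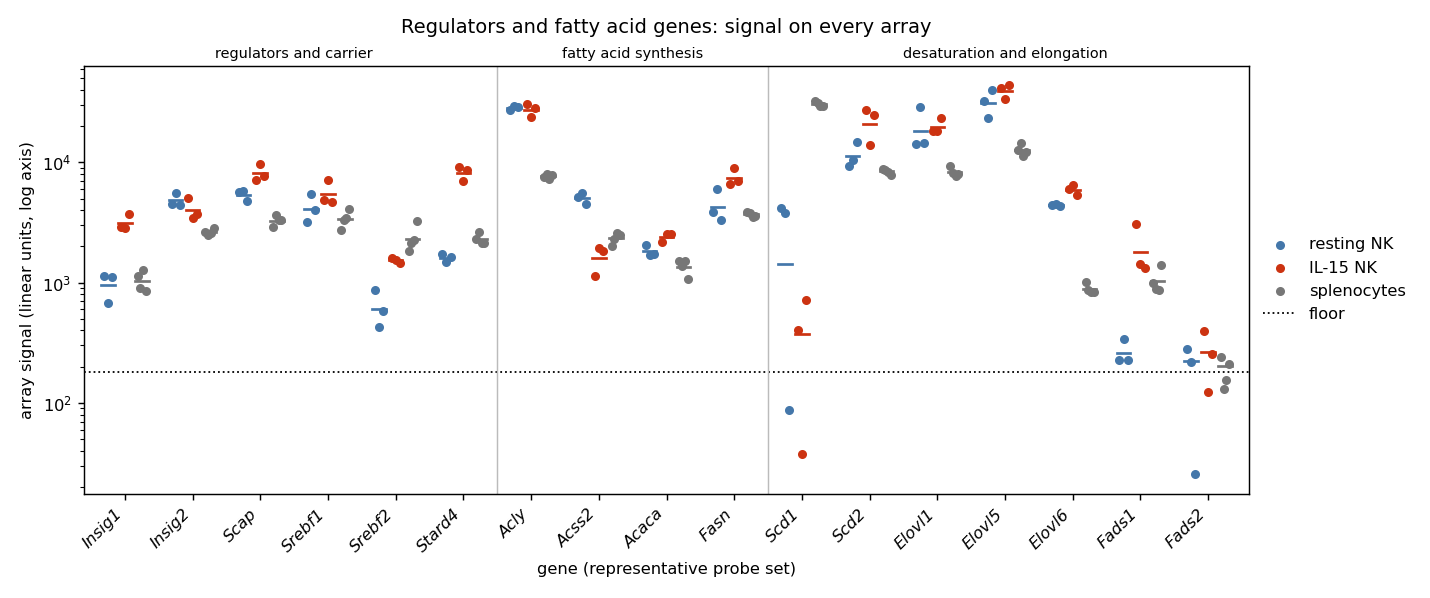
Signal of the representative probe set on every array (linear units on a log axis) for the 6 regulators and carrier, 4 fatty acid synthesis genes and 7 desaturation and elongation genes, with geometric means after flooring as short bars and the floor of 179.85 units dotted. Insig1, Srebf2, Stard4 and Fads1 are higher on every IL-15 NK than on any resting NK array, Acss2 is lower on every one, and Scd1 spreads from 87.8 to 4179 units within the resting arrays.

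Because SREBPs bind sterol regulatory elements, often beside CCAAT boxes bound by the factor NF-Y, the proximal promoters were searched for both. RefSeq windows of build GRCm38.p6, from 250 bases before to 50 bases after an annotated transcription start, were at hand for 28 of the 35 listed genes. None was at hand for Sqle, Fdps, Fdft1, Stard4, Scd1, Scd2 and Fads1. The element was searched as TCACNCCA and the box as CCAAT, each on both strands, and in none of the 37 windows of these genes did the 2 overlap. The element's letters were found in 3 of the 28 genes, Hmgcs1, Msmo1 and Srebf2, and in 4.97% of the 27025 genes with a window. CCAAT was found in 23 of the 28 genes and in 41.1% of those genes. By call after IL-15, 15 of 16 genes that rose, the 1 that fell and 7 of 10 that did not pass had a CCAAT. A match describes the letters and is not evidence of binding. Other spellings of the element and bases outside the windows were not searched, so a gene without a match is not shown to lack the element. The 3 windows with the element, those of the 2 other genes with the largest rises that had a window, Idi1 and Cyp51, and that of Acss2, the gene that fell, are shown 5′ to 3′ along the gene, with TCACNCCA and CCAAT matches in capitals (ATTGG is CCAAT on the other strand). They lie at chr13:119690101-119690400 (plus strand) for Hmgcs1, chr8:64733529-64733828 (minus) for Msmo1, chr15:82147019-82147318 (plus) for Srebf2, chr13:8885356-8885655 (plus) for Idi1, chr5:4104648-4104947 (minus) for Cyp51 and chr2:155517793-155518092 (plus) for Acss2.
Hmgcs1: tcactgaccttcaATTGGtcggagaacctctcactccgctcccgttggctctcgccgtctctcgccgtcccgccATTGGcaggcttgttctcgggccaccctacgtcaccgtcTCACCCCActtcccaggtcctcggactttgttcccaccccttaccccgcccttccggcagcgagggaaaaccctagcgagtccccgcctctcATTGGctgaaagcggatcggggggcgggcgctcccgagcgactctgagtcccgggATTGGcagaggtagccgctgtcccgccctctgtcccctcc
Msmo1: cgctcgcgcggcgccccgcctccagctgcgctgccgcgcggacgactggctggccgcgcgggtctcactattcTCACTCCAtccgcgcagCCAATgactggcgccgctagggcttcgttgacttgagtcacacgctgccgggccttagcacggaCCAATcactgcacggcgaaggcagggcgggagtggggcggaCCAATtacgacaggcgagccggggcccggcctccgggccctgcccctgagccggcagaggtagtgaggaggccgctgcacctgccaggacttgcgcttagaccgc
Srebf2: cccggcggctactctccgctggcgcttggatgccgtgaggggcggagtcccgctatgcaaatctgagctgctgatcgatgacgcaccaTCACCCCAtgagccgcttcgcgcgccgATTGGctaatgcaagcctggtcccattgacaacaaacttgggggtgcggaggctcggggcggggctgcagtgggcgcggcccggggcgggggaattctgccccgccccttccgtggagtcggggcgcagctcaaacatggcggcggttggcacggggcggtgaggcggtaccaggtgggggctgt
Idi1: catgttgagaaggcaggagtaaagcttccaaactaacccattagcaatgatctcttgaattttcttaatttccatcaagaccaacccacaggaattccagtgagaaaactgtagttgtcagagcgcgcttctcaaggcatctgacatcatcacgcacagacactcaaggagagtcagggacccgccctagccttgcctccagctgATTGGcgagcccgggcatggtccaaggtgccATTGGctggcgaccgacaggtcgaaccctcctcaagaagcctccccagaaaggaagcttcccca
Cyp51: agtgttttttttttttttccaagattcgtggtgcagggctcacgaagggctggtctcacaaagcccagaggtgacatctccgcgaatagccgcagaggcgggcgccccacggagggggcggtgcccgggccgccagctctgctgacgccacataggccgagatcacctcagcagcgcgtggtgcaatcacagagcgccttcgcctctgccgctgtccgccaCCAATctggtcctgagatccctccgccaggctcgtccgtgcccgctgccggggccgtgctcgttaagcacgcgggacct
Acss2: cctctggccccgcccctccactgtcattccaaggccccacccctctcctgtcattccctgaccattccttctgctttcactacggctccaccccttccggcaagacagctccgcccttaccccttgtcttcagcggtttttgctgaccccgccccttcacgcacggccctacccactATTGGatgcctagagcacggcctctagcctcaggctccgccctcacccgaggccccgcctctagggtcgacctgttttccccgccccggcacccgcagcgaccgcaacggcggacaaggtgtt
The element's letters begin 137 bases before the start of Hmgcs1, 177 before that of Msmo1 and 162 before that of Srebf2. The windows hold 4 CCAAT matches in Hmgcs1, 3 in Msmo1, 2 in Idi1 and 1 each in Srebf2, Cyp51 and Acss2. Acss2, which fell, thus carries the same CCAAT letters as genes that rose.

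Of the 11 genes that supply, extend and desaturate fatty acids 3 rose and 1 fell, and the difference from the sterol genes was not tested. Acly encodes ATP-citrate lyase, which makes cytosolic acetyl-CoA for both arms. Its log2 difference was -0.06 (95% interval -0.43 to 0.31, limma adjusted p = 0.84), with 27409 to 29438 units at rest and 23977 to 30651 after IL-15. Acss2 makes the same acetyl-CoA from acetate and was the only one of the 34 genes to fall. It read 5165, 5551 and 4539 at rest and 1141, 1944 and 1841 after IL-15. All IL-15 arrays were lower, 3.17-fold (log2 -1.66 ± 0.25 SE, n = 3 per group, limma adjusted p = 0.001), and its other probe sets fell too (log2 -2.51 and -1.30). Its splenocyte signals were 2001 to 2597, below every resting NK array.

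Acaca, acetyl-CoA carboxylase, which commits acetyl-CoA to fatty acids, read 2070.2, 1701 and 1714 at rest and 2171, 2543 and 2521 after IL-15. The arrays did not overlap, but the log2 difference of 0.40 (95% interval -0.08 to 0.88) did not pass (limma adjusted p = 0.20). Fasn, fatty acid synthase, read 3888, 6036 and 3337 at rest and 6570 (6569.9), 9001 and 6988 after IL-15. It rose 1.74-fold (log2 0.80 ± 0.24 SE, n = 3 per group, limma adjusted p = 0.036), with no overlap. The call was lost without any single array except resting NK replicate 2, with limma adjusted p up to 0.12.

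The 4 desaturases lie in 2 gene clusters, and 1 gene of each cluster passed. Fads1, the delta-5 desaturase of polyunsaturated fatty acids, read 227, 338 and 226 at rest and 3050 (3049.9), 1434 and 1310 (1309.9) after IL-15. IL-15 replicate 1 stood highest, the groups did not overlap, and the rise was 6.91-fold (log2 2.79 ± 0.37 SE, n = 3 per group, limma adjusted p = 0.00053). Its second probe set differed by 0.84 and did not pass. Fads2, the delta-6 desaturase encoded by the adjacent gene, read 279, 218 and 25.5 at rest and 398, 122 and 254 after IL-15. It was above the floor on 2 of 3 arrays in each group, and its difference of 0.24 did not pass (limma adjusted p = 0.63).

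Scd2, the stearoyl-CoA desaturase widely expressed outside the liver, read 9237, 10497 and 14844 at rest and 26971, 13851 and 24569 after IL-15. One IL-15 array thus lay below the highest resting array. It passed with a 1.85-fold rise (log2 0.89 ± 0.27 SE, n = 3 per group, limma adjusted p = 0.036), but not without IL-15 NK replicate 1 or 3 or resting NK replicate 1 or 2 (limma adjusted p up to 0.13), and its other probe sets did not pass (0.95 and 0.29). Scd1, which lies in the same gene cluster and is the main desaturase of liver and fat, read 4179, 3816 and 87.8 at rest and 406, 37.8 and 712 after IL-15. The 3 resting arrays spanned more than the whole IL-15 group, with a log2 SD of 2.58, and the difference of -1.93 did not pass (95% interval -4.22 to 0.36, limma adjusted p = 0.20). Without resting NK replicate 3 the log2 difference was -3.42 and passed (limma adjusted p = 0.0011), and without resting replicate 1 or 2 it was -1.15 or -1.22 and did not pass. Scd1 read 29297 to 32393 units on the splenocyte arrays. On the resting arrays its signal was high where the B-cell marker sum was high, 24977 and 24621 units in replicates 1 and 2, and under the floor in replicate 3, where that sum was 1883. The T-cell marker sum was lowest in resting replicate 3 too, at 17176, 19063 and 12616 units in replicates 1, 2 and 3. The macrophage and neutrophil sums ran otherwise, at 6651, 10634 and 15130 units and at 1557, 1289 (1288.5) and 3518 units. IL-15 replicates 1 and 3 had more Scd1 signal than resting replicate 3 at lower B-cell sums of 1547 and 1505. The part of other cells in the Scd1 signal was not tested, and in bulk RNA fewer cells of a type and less RNA per cell cannot be told apart.

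**Figure D3:**
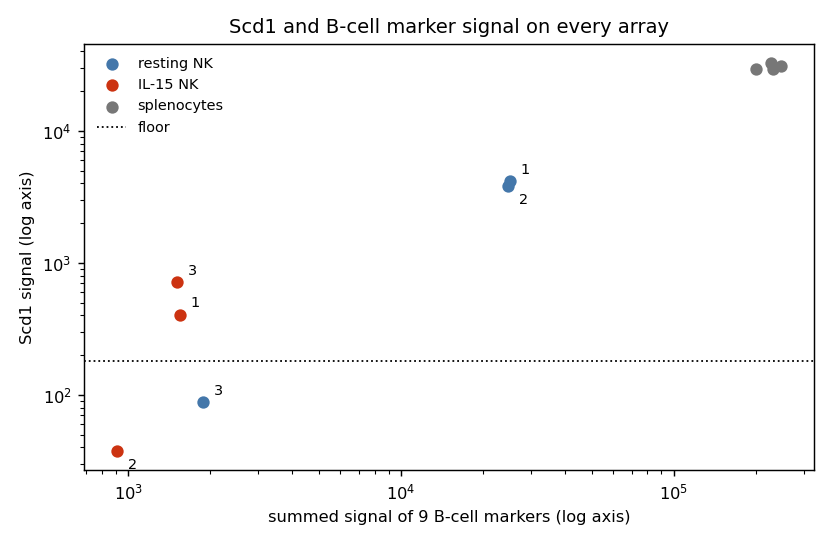
Scd1 signal against the summed signal of 9 B-cell markers on every array (both in linear signal units on log axes), with NK arrays numbered by replicate and the floor of 179.85 units dotted. Resting NK replicates 1 and 2 lie between the splenocyte arrays and the other NK arrays on both axes, while resting NK replicate 3 and IL-15 NK replicate 2 lie under the floor for Scd1.

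Of the 3 elongases none passed on the representative probe set. Elovl6, which extends the product of fatty acid synthase, gave a log2 difference of 0.42 with no overlap (limma adjusted p = 0.10), Elovl5 gave 0.35 and Elovl1 gave 0.13, both with overlap. Their probe sets disagreed: 1 of Elovl1 (1.22) and 1 of Elovl5 (1.05) were higher and 1 of Elovl6 (-1.06) was lower at a limma adjusted p under 0.05 in a fit over all probe sets. Of the 23 genes called after IL-15, 15 had another tested probe set, and for 7 all of these made the same call: Mvd, Idi1, Fdft1, Hsd17b7, Srebf2, Stard4 and Acss2. Hmgcs1 had 3 other probe sets that rose by 2.52 to 2.85 and 1 that did not pass (0.45). Lss had 2 that did not pass, at 0.39 and 0.77, and 1 did not pass for each of Cyp51 (0.33), Msmo1 (0.74), Sc5d (0.98) and Scap (0.39). With the mean of a gene's probe sets, dim ones included, the log2 rise was smaller by over 1.5 times for 7 genes, all still past the threshold. It was 2.38 for Cyp51, 2.19 for Msmo1, 1.82 for Fdps, 1.81 for Fads1, 1.27 for Lss, 1.27 for Hsd17b7 and 0.84 for Fdft1. In the same setting the calls of Scap (0.49, limma adjusted p = 0.15) and Scd2 (0.71, limma adjusted p = 0.069) were lost. Elovl5 (0.70, limma adjusted p = 0.027) and Dhcr7 (0.67, limma adjusted p = 0.032) passed there.

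**Figure D4:**
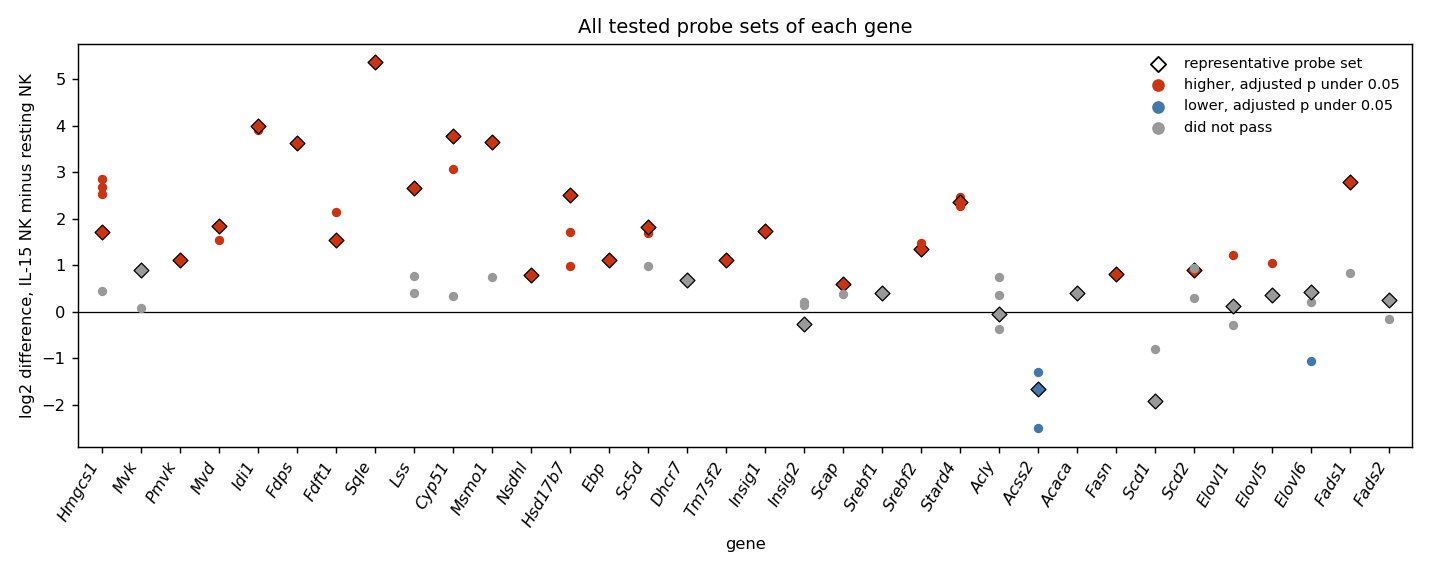
Log2 difference, IL-15 minus resting NK, for every tested probe set of the 34 genes, with the representative probe set as an outlined diamond and colour giving the call at a limma adjusted p under 0.05. The probe sets of Idi1, Stard4 and Srebf2 lie close together, while those of Lss, Cyp51, Msmo1 and Fads1 spread, and Elovl1, Elovl5 and Elovl6 have probe sets that make different calls.

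Bulk splenocytes place these levels against those of the whole spleen. Resting NK cells had no common direction: 10 of the 34 genes were higher than in splenocytes, 6 were lower and 18 did not pass, against 17.1% higher and 21.5% lower (38.6% in all) over the 12938 genes tested. Arrays did not overlap for 12 genes that were higher and 9 that were lower, against 22.7% and 27.7% of all genes. The median log2 difference was 0.18, against -0.06 over all genes. The genes that were lower included 3 of the sterol pathway. Fdps read 1773 to 2300.3 in splenocytes and was at least 6.65-fold lower in resting NK cells (limma adjusted p = 0.00065), Msmo1 read 848 to 1162 and was 3.68-fold lower (limma adjusted p = 0.0028), and Sqle read 321 to 684 and was at least 2.87-fold lower (limma adjusted p = 0.0017). Srebf2 was 3.87-fold lower at 1849, 2153, 2262 and 3241 units in splenocytes and Fads1 was 3.95-fold lower at 873 to 1411 units. Scd1 was lower on every resting array, with a log2 difference of -4.43 (limma adjusted p = 0.025). Without resting NK replicate 3, which lay under the floor for Scd1, the difference was smaller, -2.94, and still passed (limma adjusted p = 0.0063). The call was lost when dim genes were tested too (limma adjusted p = 0.096). Cyp51 did not pass (log2 -0.91, limma adjusted p = 0.091), but did without resting NK replicate 2 (log2 -1.30, limma adjusted p = 0.0052).

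Of the 10 genes that were higher in resting NK cells 5 belonged to the fatty acid arm. Elovl6 read 4376, 4469 and 4374 in resting NK cells and 1016, 863, 841 and 837 in splenocytes. No NK array came near a splenocyte array, and the difference was 4.97-fold (log2 2.31 ± 0.16 SE, limma adjusted p = 1.6e-05). The other probe sets of Elovl6 were higher too, by 2.61 and 3.18. Acly was 3.74-fold higher (7226 to 7990 units in splenocytes, limma adjusted p = 3.2e-05), Elovl5 2.46-fold, Elovl1 2.19-fold and Acss2 2.17-fold. For Elovl5 and Elovl1 another probe set did not pass (-0.18 and -0.11), and for Acly 3 of 4 other tested probe sets did not (-0.08, -0.36 and -0.17). With the mean of a gene's probe sets the log2 difference of Acly was 0.48 in place of 1.90, that of Elovl5 0.56 in place of 1.30 and that of Elovl1 0.64 in place of 1.13, all past the threshold. That of Fdps was -1.37 and that of Msmo1 -0.77, both still lower. Of the sterol genes Hmgcs1, Ebp and Dhcr7 were higher, by log2 differences of 1.46, 0.98 and 0.94. For Hmgcs1 the mean of all its probe sets differed by only 0.08 (limma adjusted p = 0.79). Insig2 and Scap were higher as well, by 0.87 and 0.71, but for Scap the mean of its probe sets gave -0.24 (limma adjusted p = 0.47). Quantile normalization moved the median of all genes from -0.06 to 0.05 in this comparison.

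After IL-15 most of the genes stood above splenocytes. Of the 34, 25 were higher and 1, Scd1, was lower, against 20.8% higher and 23.5% lower (44.3% in all) over 12465 genes tested. Arrays did not overlap for 28 genes that were higher and 3 that were lower, against 27.8% and 31.1% of all genes. The median log2 difference was 1.39, against -0.10 over all genes. Of the 22 genes that rose with IL-15, 14 had been below the splenocyte mean at rest, and 21 were above it after IL-15. These comparisons share the NK arrays, so the counts are not independent of each other. The 22 genes were picked for being higher on the same IL-15 NK arrays, which favours a move to above the splenocyte mean. The matching share among all genes that rose was not counted. Sqle was 14.3-fold above splenocytes (limma adjusted p = 1.1e-05), Idi1 12.6-fold (2.5e-05), Hmgcs1 9.03-fold (1.5e-05), Lss 8.37-fold (2.5e-05), Cyp51 7.23-fold (0.00055) and Hsd17b7 7.03-fold (0.0017), each by limma with adjusted p in parentheses. With the mean of a gene's probe sets the log2 difference was 1.31 for Lss, 1.76 for Cyp51, 1.38 for Hsd17b7, 0.78 for Fdft1 and 0.58 for Acly, all still higher, while Scap (0.26), Scd2 (0.11) and Acaca (0.40) did not pass, and that of Insig2 was 1.03. Fdps, which had been far below splenocytes at rest, was 1.86-fold above them and did not pass (limma adjusted p = 0.080).

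Srebf2 was the only gene of the 22 whose IL-15 mean stayed under the splenocyte mean, by a log2 difference of -0.60 that did not pass (95% interval -1.32 to 0.12, limma adjusted p = 0.16). Scd1 was at least 82.0-fold lower than in splenocytes (fitted log2 difference -6.36, limma adjusted p = 0.0044). For Scd2 the probe sets disagreed, since the representative was higher by 1.32 while another was lower by 1.16 (log2 -1.16, limma adjusted p = 0.033). Pmvk passed at 0.70 but not without IL-15 NK replicate 1 or 3 or splenocyte chip 2, 3 or 4 (limma adjusted p up to 0.071). Insig2 passed at 0.60 but not without IL-15 NK replicate 1 or 3 or splenocyte chip 1, 2 or 3 (up to 0.11). Nsdhl and Srebf1 did not pass at 0.64 and 0.70, but did without splenocyte chip 3 (limma adjusted p = 0.047) and chip 4 (limma adjusted p = 0.042), in that order. Quantile normalization moved the median of all genes from -0.10 to 0.11 here.

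**Figure D5:**
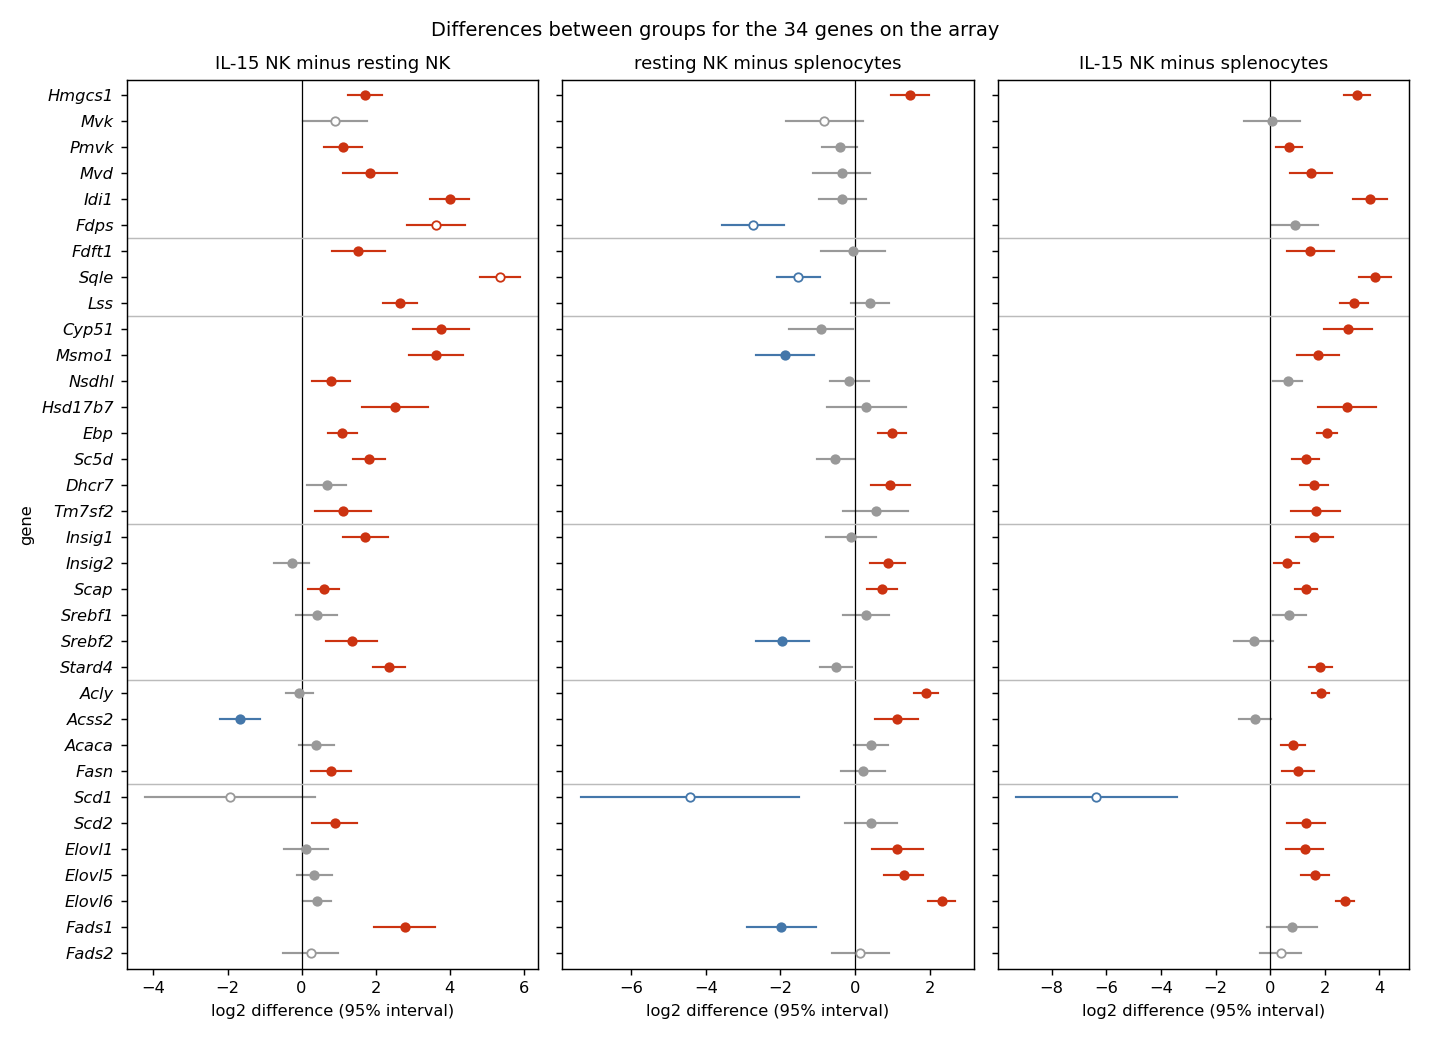
Log2 differences with 95% intervals for the 34 genes in the 3 comparisons, from top to bottom in pathway order with lines between role groups; red is higher and blue lower at a limma adjusted p under 0.05, grey did not pass, and open circles are bounds because an array of the dimmer group lay at the floor. In the first panel 22 genes are red and only Acss2 is blue, and in the second the sterol genes lie on both sides of 0.

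Other genes of the 2 pathways were counted from lists that name their known members. Of 26 other genes of sterol and isoprenoid metabolism 17 were on the array and tested in IL-15 NK against resting NK cells, and 4 rose, 1 fell and 12 did not pass, with a median log2 difference of 0.20. That count is near the 26.3% called over all genes tested. Tmem97, a sterol-binding membrane protein, rose at least 5.90-fold (limma adjusted p = 0.00032), and Erlin1, which helps to turn over sterol-regulated proteins in the endoplasmic reticulum, rose 3.56-fold (limma adjusted p = 0.00097). Dhdds and Coq2, which use isoprenoids to make dolichol and ubiquinone, rose by log2 differences of 1.05 and 0.65. Mylip, a ubiquitin ligase, fell by 1.28 on the log2 scale. Of 28 other fatty acid genes 19 were tested, of which 10 rose, 3 fell and 6 did not pass, with a median of 0.55. Over all genes tested 14.2% were higher and 12.1% lower (26.3% in all). In these wider lists the fatty acid genes thus had the higher median, the reverse of the order among the 34 genes, and neither difference was tested. Hacd1, a dehydratase of the elongation cycle, rose 6.57-fold (limma adjusted p = 0.00063), and Slc25a1, the carrier that exports citrate from mitochondria, rose by 1.52. Those that fell were Elovl7, Lpin1 and Acss1, by 2.17, 1.69 and 1.64 on the log2 scale. Acss1 is the mitochondrial counterpart of Acss2.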

How the data were processed

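Signals of 10 arrays were used as the authors deposited them: a linear intensity for each probe set. The submitters' processing notes name GCOS 1.4 as the software, and no label names its algorithm. Probe sets of control sequences (64) were left out, and 34945 had 1 gene symbol in GEO's platform annotation. Signals under the floor, the median over arrays of the 40th percentile (179.85 units), were set to it. A gene was tested where at least 3 arrays of the groups compared were above it. Log2 signals were compared with limma 3.58.1 in R 4.3.3 (lmFit, eBayes with an intensity trend, 2-sided), with Benjamini-Hochberg adjustment over all genes tested and a threshold of 0.05. The comparison of NK groups used their 6 arrays. For splenocytes all 3 groups shared 1 variance, chips were averaged in pairs under each of 3 pairings because the labels do not say which share a sample, and the largest p was kept. The main fit of each comparison was run on simulated data in which the splenocyte chips were drawn as independent values. Chips that share a sample were thus not simulated, and neither were the alternative fits. The number of arrays limits the precision. The genes and lists were chosen with earlier results of these data known. Array-by-array values were given for up to 3 genes per role with the largest called differences and for Insig1, Insig2, Scap, Srebf1, Srebf2, Scd1, Scd2, Fasn, Acaca, Fads1 and Fads2, and other values by group or fold; Mvk and Dhcr7 were added after their values were seen. Alternatives were another floor, no floor, no filter, quantile normalization, the mean of a gene's probe sets, no trend, each array left out, a replicate block and other groupings of the variance.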

Additional observations from a re-analysis of the deposited data

Results flagged for a closer look

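Among the 34 genes, the 4 splenocyte chips were checked for a single chip far from the others, with the gap to the nearest chip divided by the range on the log2 scale. Chance marks about 1 in 20 groups of 4 independent values. The chips are 2 biological samples with 2 chips each, so that rate may not hold here. Sqle on splenocyte chip 3 read 321 units against 604 to 684 on the other chips (gap 0.836 of the range). Hsd17b7 on chip 2 read 556 (555.5) units against 667 to 684 (gap 0.881), and Elovl6 on chip 1 read 1016 against 837 to 863 (gap 0.839).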

How the results depend on the processing

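The count of genes called was 23 in IL-15 NK against resting NK cells and lay between 16 (every gene tested) and 24 over the alternatives, with 18 to 22 when 1 array was left out. Against splenocytes it was 16 for resting NK cells (14 to 19 over the alternatives, 16 to 17 with 1 array left out) and 26 for IL-15 NK cells (24 to 31, and 24 to 26). Of the 23 genes called after IL-15, 15 made the same call under every alternative run. Fdft1, Hsd17b7 and Srebf2 were lost only when every gene was tested, with limma adjusted p of 0.10, 0.053 and 0.064, and Nsdhl, Tm7sf2, Scap, Fasn and Scd2 under several settings. Over all genes the count called after IL-15 was 3003, against 1646 with every gene tested and 1963 without IL-15 NK replicate 3. One result reversed: Scap in resting NK against splenocytes, at -0.24 with the mean of its probe sets. With the replicate number as a block 23 genes were called, as without it. Samples of the same number had deviations that correlated by 0.10, 0.28 and 0.07, and those of different number by -0.22 to 0.15. The main fit did not pair samples by number, and these values do not settle whether the numbers pair them. Genes near the floor, such as Mvk, Fads2 and Scd1, can be given only as bounds or wide intervals.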

Other observations

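Fatty acid oxidation, the opposite of synthesis, was counted in the same way over a list of 19 genes. Of 18 tested in IL-15 NK against resting NK cells, 5 rose, 1 fell and 12 did not pass, with a median log2 difference of 0.37 against -0.09 over all genes. That count is close to the 26.3% called over all genes tested. Etfa, which carries electrons from acyl-CoA dehydrogenases, rose by 1.10 (limma adjusted p = 0.0053) and Echs1, a hydratase of the cycle, by 0.91 (limma adjusted p = 0.010). The gene that fell was Cpt1a, the carnitine transferase that admits long-chain fatty acids to mitochondria, with a log2 difference of -1.28 (limma adjusted p = 0.0080).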
